A study of Homo sapiens with 12 samples.

Results

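ARL2BP, OXSR1, TMTC4, CRIM1, MGAT4A and NAPB are 6 protein-coding genes of the 62703 gene identifiers in the count table. They were chosen by a match to the guide seed of a hnRNP U siRNA in the 3′ UTR and selected on their lower level in these data after hnRNP U silencing. The choice therefore used their fold changes in both kinds of RNA, and their differences between the siRNAs are given below as a description, without p-values. RNA-seq was performed on HCT116 cells, a human colorectal carcinoma line, 48 h after transfection of a control siRNA (called wild-type in the labels) or a siRNA against HNRNPU (HNRNPU silencing). From each of 3 experiments, total RNA and heavy polysomal (HP) RNA, the RNA of fractions with many ribosomes per mRNA, were sequenced, which gives 3 libraries in each of 4 groups and 12 in all. All groups were of this 1 cell line. The libraries held 30305012 to 39761103 counts, and 15920 genes passed the filter on low counts, all 6 genes among them. Levels are CPM (counts divided by library size) scaled by the trimmed mean of M-values (TMM), and a fold change compares hnRNP U siRNA with control siRNA on the log2 scale unless stated otherwise. In such bulk RNA, fewer cells expressing a gene and less of its RNA per cell cannot be told apart.

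A siRNA is a short RNA duplex, of which one strand, the guide, is loaded into an Argonaute protein. A fully paired mRNA is cut. Bases 2 to 8 of the guide, the seed, can also pair with short stretches in the 3′ UTRs of other mRNAs, in the way of a miRNA, and such mRNAs can be destabilised and less translated. Matches are graded by their length. An 8mer here is a 7-nt match to bases 2 to 8 followed by an A, a 7mer-m8 is that match without the A, a 7mer-A1 has 6 paired bases and the A, and a 6mer has the 6 paired bases alone.

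The study's methods list 2 siRNAs against hnRNP U and the sources used here do not state which one was transfected for sequencing. The 6 genes share a match to the seed of siRNA 1. The target sites of both siRNAs lie in the coding sequence of HNRNPU, on the minus strand of chromosome 1 (GRCh38), at chr1:244858238-244858256 for siRNA 1 and chr1:244856551-244856569 for siRNA 2. The sequences below are the guides, written as the reverse complement of their target sites without overhangs, and the target sites, with the seed or its match in capitals. They show which 7 letters were searched for.
siRNA 1 guide: uAGCAUACgagaguucuac
siRNA 1 target site in HNRNPU: gtagaactctcGTATGCTa
siRNA 2 guide: aACUACAAcagcuuuucgc
siRNA 2 target site in HNRNPU: gcgaaaagctgTTGTAGTt

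Of 2370 human mature miRNAs in RefSeq, 0 had the seed of either guide. The matches of the 6 genes to the seed of siRNA 1 follow, each with its neighbouring bases on the sense strand of the transcript (GRCh38) and the match GTATGCT in capitals. An a directly after the capitals makes the match an 8mer.
ARL2BP site 1: tgggcacctatgaatGTATGCTgtgtg
ARL2BP site 2: ctttactggctgtttGTATGCTttggt
OXSR1 site 1: attcctccttatgatGTATGCTaggtt
TMTC4 site 1: gttttgttcttctctGTATGCTgttga
CRIM1 site 1: agacacagatacccaGTATGCTtaacg
MGAT4A site 1: acttgattccctgtaGTATGCTggata
MGAT4A site 2: atgctacgataactaGTATGCTtactt
NAPB site 1: tttttgtgttgttccGTATGCTaacat
NAPB site 2: gtttatataatatatGTATGCTatctt

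OXSR1 and NAPB held 8mers, and the other 4 genes held 7mer-m8 matches. ARL2BP, MGAT4A and NAPB had 2 matches in the 3′ UTR, and OXSR1, TMTC4 and CRIM1 had 1. The ARL2BP matches lie on the plus strand at chr16:57253133-57253139 and chr16:57253354-57253360, and start at nucleotides 866 and 1087 of a 3′ UTR of 1368 nt. The OXSR1 match, at chr3:38255375-38255381 on the plus strand, starts at nucleotide 2484 of 2593 and ends 103 nt before the transcript does. These sites of ARL2BP and OXSR1 thus lie in the distal part of the UTR.

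The TMTC4 match lies on the minus strand at chr13:100603999-100604005, at nucleotide 989 of 1369. The CRIM1 match is on the plus strand at chr2:36550450-36550456, at nucleotide 1749 of 2434. MGAT4A has the longest of the 6 UTRs, 6460 nt, with matches at nucleotides 4523 and 5329, on the minus strand at chr2:98621037-98621043 and chr2:98620231-98620237. It also has a 7-nt match in its coding sequence, at chr2:98655472-98655478. The NAPB matches, on the minus strand at chr20:23376830-23376836 and chr20:23376247-23376253, were the only ones in the proximal part, at nucleotides 540 and 1123 of 2854. The map of the matches shows this spread.

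**Figure D1:**
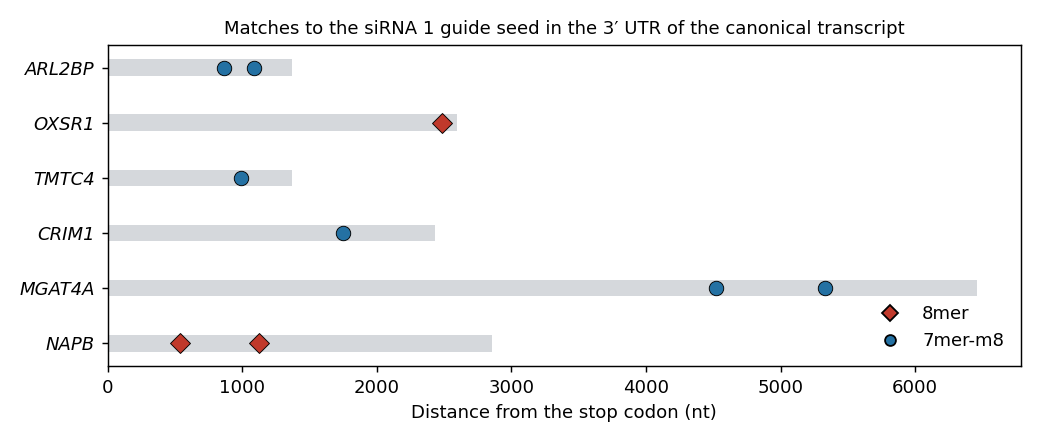
Positions of the 7-nt matches to the seed of siRNA 1 in the 3′ UTRs of the 6 genes. Each grey bar is the 3′ UTR of the canonical transcript, drawn to scale from the stop codon (nt on the x axis); red diamonds are 8mers and blue circles are 7mer-m8 matches. NAPB, at the bottom, has both matches in the proximal part of its bar of 2854 nt, whereas those of the other genes lie in the distal part of theirs.

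Outside the seed, the 9 UTR sites paired little with the guide. Of the 11 guide positions beyond the seed, 0 formed a Watson-Crick pair at the TMTC4 site, 1 and 2 at the ARL2BP sites, 2 at the OXSR1 site, 3 and 4 at the NAPB sites, and 4 at the CRIM1 site and at each of the MGAT4A sites. Over the 1034 such sites in the 930 tested genes that hold a 7-nt match, the median was 3 pairs (quartiles 2 and 4). The 30 nt on each side of the matches held 56.7% (ARL2BP site 2) to 76.7% (NAPB site 2) A and T, beside a median of 65.0% (quartiles 56.7% and 71.7%) over all 1034 sites. Of all these sites, 52.8% lay in the distal part of the UTR and 21.6% were followed by an A. Not every annotated transcript carried the match. It was in the 3′ UTR of 2 of 3 protein-coding transcripts of ARL2BP, 1 of 2 of OXSR1, 2 of 3 of TMTC4, 1 of 3 of CRIM1, 3 of 5 of MGAT4A and 4 of 4 of NAPB, and the counts do not separate transcripts. The 3′ UTRs of CRIM1 and MGAT4A also held 7-nt matches to the seed of siRNA 2 (1 and 3 matches, an 8mer in each), and CRIM1 held a 7mer-m8 match to the seed of the other strand of siRNA 1.

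HNRNPU itself was at 992, 1106 and 986 CPM in total RNA with control siRNA and at 168, 149 and 160 CPM with hnRNP U siRNA. In HP RNA it was at 1022, 1145 and 1074 CPM against 82.4, 75.2 and 77.1 CPM. The targeted gene was thus lower in all 6 libraries labelled as silenced than in the 6 control libraries. The libraries expressed the epithelial genes EPCAM (361 to 863 CPM), KRT8 (1618 to 3160 CPM) and CDX2 (17.9 to 31.4 CPM), and 2 of 8 markers of colonic epithelium, VIL1 and LGALS4, stayed at or below 0.12 CPM. Of 8 markers of other cell types the highest was COL1A1 (6.68 to 17.4 CPM), and the leukocyte gene PTPRC stayed at or below 0.025 CPM. The summed level of those 8 was 18.1 to 19.8 CPM in control total RNA and 11.5 to 12.2 CPM after silencing, and its part in the results was not tested.

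ARL2BP encodes a partner of the small GTPase ARL2, found in the cytosol, at mitochondria and at the base of cilia. In total RNA it was at 69.0, 69.3 and 67.8 CPM with control siRNA and at 20.01, 18.6 and 19.9 CPM with hnRNP U siRNA. In HP RNA it was at 41.3, 43.3 and 43.2 CPM against 11.7, 9.43 and 12.3 CPM. The silenced libraries lay far below the control libraries in both kinds of RNA, without overlap. The log2 fold change was −1.82 (SE 0.05) in total RNA and −1.96 (SE 0.09) in HP RNA, so that 28.3% and 25.6% of the control level remained.

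OXSR1 encodes a kinase that WNK kinases activate and that phosphorylates cation-chloride cotransporters in the control of cell volume. Its CPM in total RNA were 71.9, 74.6 and 72.0 with control siRNA and 22.6, 20.04 and 21.1 with hnRNP U siRNA. In HP RNA they were 84.4, 82.5 and 79.1 against 21.02, 19.6 and 19.8. The control libraries of HP RNA lay above those of total RNA, and after silencing the 2 kinds of RNA were at nearly the same level. This gave log2 fold changes of −1.78 (SE 0.05) and −2.06 (SE 0.06) in total and HP RNA.

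TMTC4 encodes a membrane protein of the endoplasmic reticulum, one of the transferases that attach O-linked mannose to cadherins. It was at 34.4, 34.1 and 34.2 CPM in control total RNA and at 10.0, 9.41 and 10.7 CPM after silencing. In HP RNA the values were 27.9, 27.6 and 27.1 CPM against 5.63, 5.64 and 6.51 CPM. The replicates were close to each other in every group, and its fold change in HP RNA was the largest of the 6 genes. The log2 fold change was −1.78 (SE 0.06) in total RNA and −2.25 (SE 0.09) in HP RNA, which left 29.2% and 21.1% of the control level.

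CRIM1 encodes a transmembrane protein with cysteine-rich repeats that binds bone morphogenetic proteins (BMPs). In total RNA it was at 63.1, 65.4 and 67.0 CPM with control siRNA and at 19.9, 17.4 and 20.8 CPM with hnRNP U siRNA. In HP RNA it was at 68.5, 68.2 and 64.5 CPM against 18.4, 15.6 and 17.96 CPM. The levels in total and HP RNA were alike within each siRNA. Silencing changed CRIM1 by −1.76 (SE 0.06) on the log2 scale in total RNA and −1.99 (SE 0.07) in HP RNA.

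MGAT4A encodes a Golgi N-acetylglucosaminyltransferase that starts one of the branches of N-glycans. It was at 18.3, 17.7 and 18.7 CPM in control total RNA and at 5.84, 6.76 and 7.36 CPM after silencing. In HP RNA it was at 8.17, 8.84 and 9.58 CPM against 2.96, 2.62 and 3.06 CPM. Control HP RNA held less MGAT4A than control total RNA, and the silenced libraries were again below all control libraries of the same kind of RNA. MGAT4A had a log2 fold change of −1.46 (SE 0.08) in total RNA and −1.66 (SE 0.12) in HP RNA. It had the smallest count in a single library, 85, of the 6 genes.

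NAPB encodes β-SNAP, an adaptor that brings the ATPase NSF to SNARE complexes after membrane fusion. It was at 14.2, 12.7 and 13.9 CPM in control total RNA and at 8.97, 8.64 and 9.61 CPM after silencing. In HP RNA it was at 10.7, 11.3 and 10.4 CPM against 3.68, 3.45 and 4.06 CPM. The groups did not overlap in either kind of RNA, but in total RNA the silenced libraries came closer to the control libraries than for any of the other 5 genes. For NAPB the log2 fold change was −0.59 (SE 0.08) in total RNA, with 66.4% of the control level left, and −1.56 (SE 0.11) in HP RNA, with 33.9% left.

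**Figure D2:**
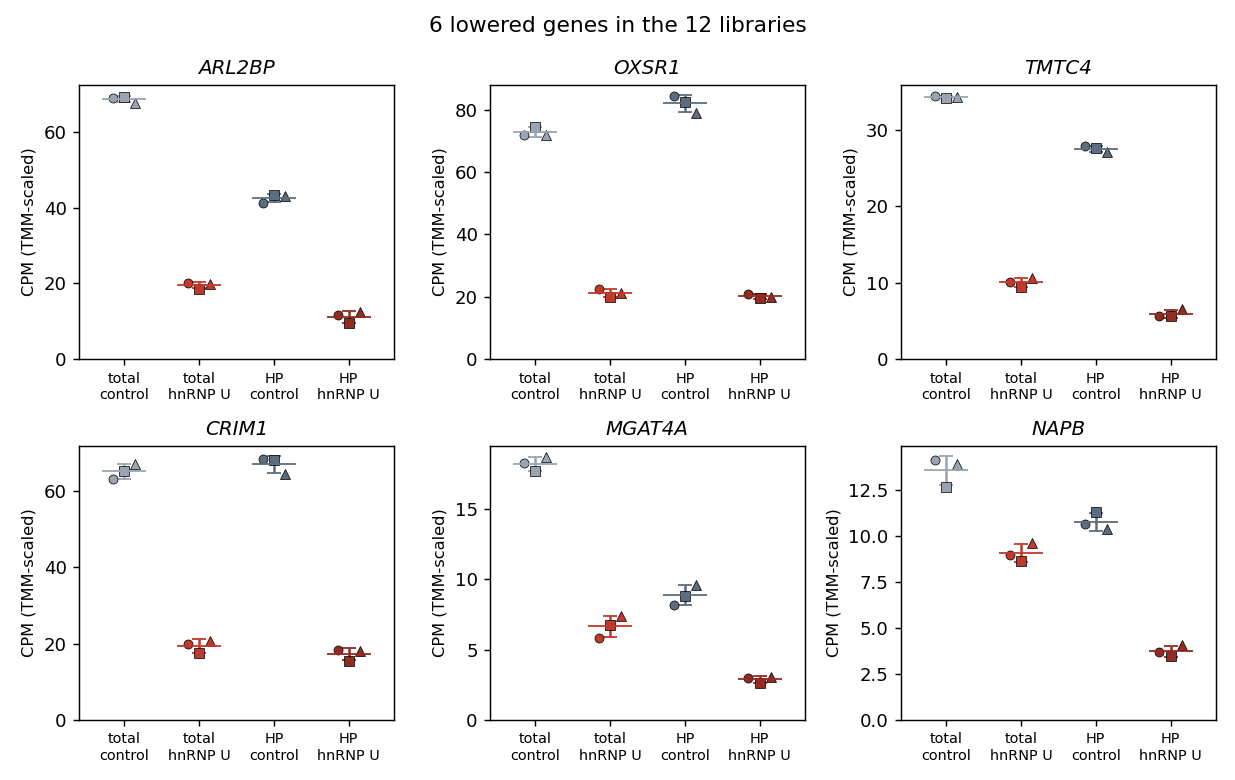
Levels of the 6 genes in the 12 libraries, as TMM-scaled CPM on axes that start at 0. Circles, squares and triangles are experiments 1, 2 and 3, and horizontal and vertical bars are the mean and SD of the 3 libraries; grey marks control siRNA and red hnRNP U siRNA, in total and HP RNA. The red points lie below the grey points of the same kind of RNA in every panel, by the least for NAPB in total RNA.

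Per kb of exon, the order of the levels in control total RNA was ARL2BP (34.5 CPM per kb), OXSR1 (11.8 to 12.3 over the libraries), CRIM1 (8.97), TMTC4 (5.21), NAPB (2.60) and MGAT4A (1.89). Neighbours in this order did not overlap over the 3 libraries, since NAPB ranged from 2.43 to 2.71 and MGAT4A from 1.84 to 1.94 CPM per kb. ARL2BP, OXSR1, CRIM1 and TMTC4, the highest per kb, also had the largest falls, and a link between level and fall was not tested. In total RNA the fold changes fell into 3 levels. ARL2BP, OXSR1, TMTC4 and CRIM1 lay between −1.82 and −1.76, apart by about the size of their SEs, MGAT4A was at −1.46 and NAPB at −0.59. In HP RNA the 6 genes lay between −2.25 and −1.56.

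In every experiment all 6 genes were lower in both kinds of RNA. The log2 difference between same-numbered libraries ranged from −1.91 to −1.34 in total RNA over the 5 genes other than NAPB, and from −0.66 to −0.53 for NAPB. All 6 were called lower in total RNA, beside 29.3% of all genes tested, and all 6 in HP RNA, beside 26.3%, with an adjusted p under 0.05 as the limit. At least 2-fold lower were 5 of 6 in total RNA (4.60% of all genes) and 6 of 6 in HP RNA (4.77%). All 3 silenced libraries lay below all 3 control libraries for the 6 genes in total RNA (31.2% of all genes) and in HP RNA (26.5%). Since the genes were picked for being lower, nothing is read from these counts.

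In the ratio of HP to total RNA, all 6 genes had a negative fold change, and NAPB and TMTC4 had the largest. NAPB was at −0.41, −0.17 and −0.42 log2 (HP/total) with control siRNA in experiments 1, 2 and 3, and at −1.27, −1.31 and −1.23 with hnRNP U siRNA. Its log2 fold change of HP/total was −0.94 (SE 0.13), the third lowest of the 930 genes with a 7-nt match. TMTC4 went from −0.30, −0.31 and −0.34 to −0.82, −0.73 and −0.71, a log2 fold change of −0.44 (SE 0.10). The differences between the siRNAs in experiments 1, 2 and 3 were −0.33, −0.18 and −0.23 for OXSR1 and −0.23, −0.22 and −0.15 for CRIM1.

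The log2 fold change of HP/total was −0.25 (SE 0.08) for OXSR1, −0.20 (SE 0.10) for CRIM1, −0.17 (SE 0.14) for MGAT4A and −0.11 (SE 0.10) for ARL2BP. MGAT4A was higher in experiment 1 (0.19) and lower in experiments 2 (−0.35) and 3 (−0.29), and ARL2BP differed mainly in experiment 2 (−0.30, against −0.03 and −0.04). These 2 genes thus showed no difference beyond the spread between experiments. HP/total is the difference of the 2 fold changes on which the genes were chosen, so the calls in it are counted as a description and nothing is read from them. NAPB was the 1 gene of the 6 that was called, beside 0.163% of all genes tested (26 genes, 13 lower and 13 higher). TMTC4 was also called with the experiment as a block (0.490% of all genes), with the culture as a block (0.879%) and, without a block, by DESeq2's test (0.434%). The comparisons of HP/total, HP RNA and total RNA share libraries and are not independent of each other.

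**Figure D3:**
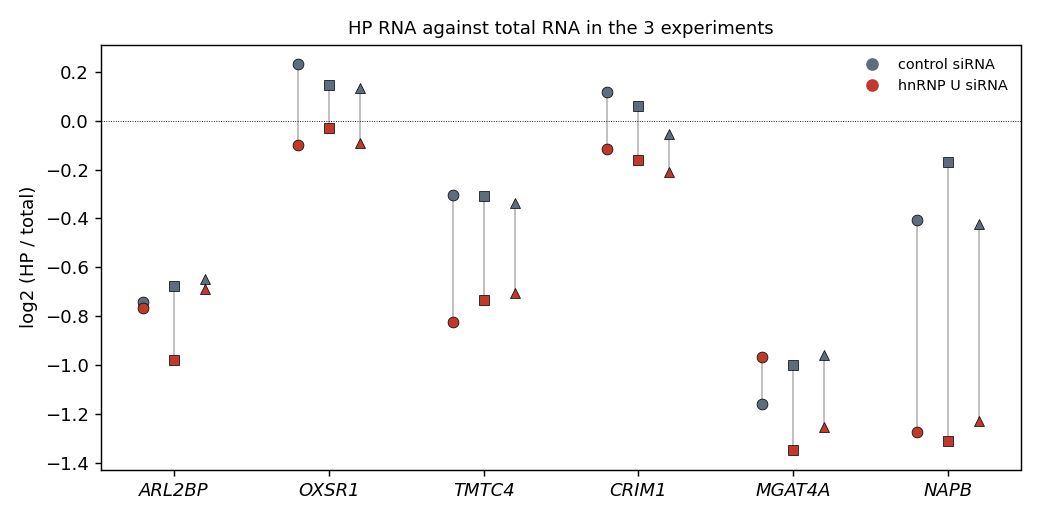
log2 ratio of HP to total RNA for each gene in experiments 1 (circles), 2 (squares) and 3 (triangles), with control siRNA (grey) and hnRNP U siRNA (red) joined by a line. NAPB drops from between −0.42 and −0.17 to between −1.31 and −1.23, TMTC4 drops less, and MGAT4A goes up in experiment 1 and down in the other two.

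HP against total RNA with control siRNA shows how the mRNAs were spread without silencing. This comparison was not itself used to choose the genes. Its libraries were also the controls of the fold changes behind the choice, so it is not fully independent of it. Of the 6 genes, 5 passed edgeR's quasi-likelihood test at an adjusted p under 0.05, 4 lower and 1 higher. Of all genes tested 65.1% passed, 32.0% lower and 33.1% higher, so a call in this comparison was common. MGAT4A was lower in HP RNA by −1.04 on the log2 scale (SE 0.08, adjusted p = 3.78e-08 from edgeR) and ARL2BP by −0.69 (SE 0.05, adjusted p = 2.55e-08 from edgeR). NAPB (−0.34, SE 0.08, adjusted p = 0.0020 from edgeR) and TMTC4 (−0.32, SE 0.06, adjusted p = 1.77e-04 from edgeR) were lower as well. OXSR1 was the only one that was higher, by 0.17 (SE 0.05, adjusted p = 0.0076 from edgeR). With a stricter filter on low counts the value of OXSR1 was 0.11 and did not pass (adjusted p = 0.0622 from edgeR). CRIM1 differed by 0.04 (SE 0.05), less than the spread between libraries (adjusted p = 0.518 from edgeR).

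The 6 genes belong to 930 genes, of 12710 tested protein-coding genes with a 3′ UTR (7.32%), that hold a 7-nt match to the seed of siRNA 1 in the canonical transcript. Of the 930, 215 had an 8mer (23.1%), as OXSR1 and NAPB do, and 99 had 2 or more matches (10.6%), as ARL2BP, MGAT4A and NAPB do. In total RNA, 557 of the 930 were lower and 119 higher (59.9% and 12.8%), whereas of the 12710 genes 33.6% were lower and 27.5% higher. Without the 6 genes the shares were 59.6% and 12.9% of 924. In total RNA 91 were at least 2-fold lower, 5 of the 6 genes among them. The number in HP RNA was 106 with all 6 genes, and 79 genes, 5 of the 6 among them, met the limit both times. Ordered by fold change in total RNA, ARL2BP, OXSR1, TMTC4, CRIM1, MGAT4A and NAPB were at places 11, 12, 14, 15, 34 and 252 of the 930, and in HP RNA at places 9, 7, 5, 8, 27 and 35.

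The fold change was graded by the class of the match. The median UTR length rose along the classes too, from 890 nt without any match to 3809 nt with an 8mer. The median log2 fold change in total RNA was −0.37 for the 215 genes with an 8mer, −0.26 for 715 with a 7mer-m8, −0.08 for 736 with a 7mer-A1, −0.05 for 1965 with a 6mer and 0.00 for 9079 without any of these. In HP RNA the medians were −0.42, −0.26, −0.11, −0.07 and 0.01. For the seed of siRNA 2 the 7mer-A1 and 6mer medians in total RNA were −0.04 and −0.05. For the other strand of siRNA 1 they were −0.05 and −0.07. The part of UTR length in the steps between classes was not tested. The 8mer of OXSR1 and the 7mer-m8 matches of ARL2BP, TMTC4 and CRIM1 went with nearly the same fold change in total RNA, so the order of the classes was not seen among these genes. Genes with 2 or more matches had a median of −0.40 in total RNA and genes with 1 match −0.26, and at least 2-fold lower were 16.2% and 9.03% of them. The median fold change of HP/total was 0.00 in both classes of 7-nt match and 0.04 in genes without a match. It moved with UTR length too. Without a 7-nt match it was 0.071 in the quartile of the shortest UTRs and 0.004 in that of the longest, where genes with a match were at −0.002. The 6 genes lay below the medians of their classes, which is a description, since their choice used both fold changes.

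**Figure D4:**
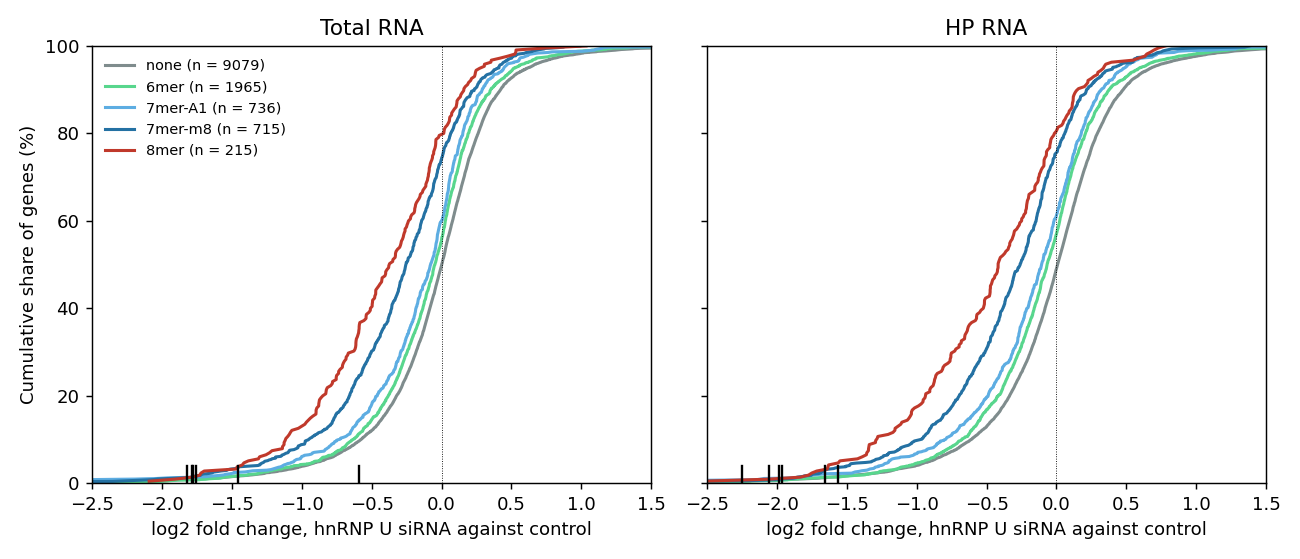
Cumulative share of genes (%) by log2 fold change after hnRNP U siRNA in total RNA (left) and HP RNA (right), with 1 line per class of match to the seed of siRNA 1 in the 3′ UTR and the number of genes in the key. Black ticks on the x axis are the 6 genes. The 8mer and 7mer-m8 lines lie to the left of the line of genes without a match, with medians of −0.37 and −0.26 against 0.00 in total RNA.

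Genes with a match also had longer 3′ UTRs, with a median of 3444 nt against 1320 nt over all genes with a UTR, and UTR length moved with the fold change. Without a match, genes in the quartile of the longest UTRs (2745 nt or more) had a median of −0.09 in total RNA and those in the quartile with the shortest (517 nt or less) 0.03. Within each quartile of UTR length the genes with a 7-nt match were lower than those without one. From the shortest to the longest, the medians were −0.43 against 0.03, −0.42 against 0.02, −0.27 against −0.03 and −0.26 against −0.09. ARL2BP, OXSR1, TMTC4 and CRIM1 are in the quartile with −0.27 against −0.03. Genes with a 7-nt match in the coding sequence alone (383 genes) had a median of −0.08. For the seed of siRNA 2, 1671 genes held a 7-nt match, with 704 lower and 390 higher in total RNA (42.1% and 23.3%) and a median of −0.09. For the seed of the other strand of siRNA 1, 1444 genes held one, with 633 lower and 322 higher (43.8% and 22.3%) and a median of −0.10. Their median UTRs were also long, 3306 and 3318 nt, and the part of UTR length in these values was not tested.

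Read the other way, the share of genes with a 7-nt match grew with the fall of the gene. Among protein-coding genes whose mean log2 CPM reached 3, a match was found in 13 of 27 (48.1%) with a fold change in total RNA between −2 and −1.5, in 33.3% between −1.5 and −1, in 22.6% between −1 and −0.5, in 8.96% between −0.5 and 0 and in 3.88% above 0. ARL2BP, OXSR1, TMTC4 and CRIM1 were 4 of these 13. With HNRNPU left out, 2 genes were below −2, and 0 of them held a match. So 14 of the 27 genes between −2 and −1.5 had no 7-nt match in the canonical 3′ UTR.

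Around the 6 genes the ordering was dense. Of the 743 genes with a match whose mean log2 CPM reached 3, ARL2BP and OXSR1 were the lowest in total RNA. GDA, the guanine deaminase gene, followed OXSR1 with a log2 fold change of −1.78 in total RNA and −1.82 in HP RNA. PUDP, a pseudouridine phosphatase gene, followed CRIM1 with −1.72 and −1.80. NAPB stood at place 164, between RABEP1 and DHRS13, which had the same fold change in total RNA (−0.59 each) but −0.70 each in HP RNA, where NAPB was at −1.56. MGAT4A, with a mean log2 CPM of 2.91, fell short of this ordering.

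**Figure D5:**
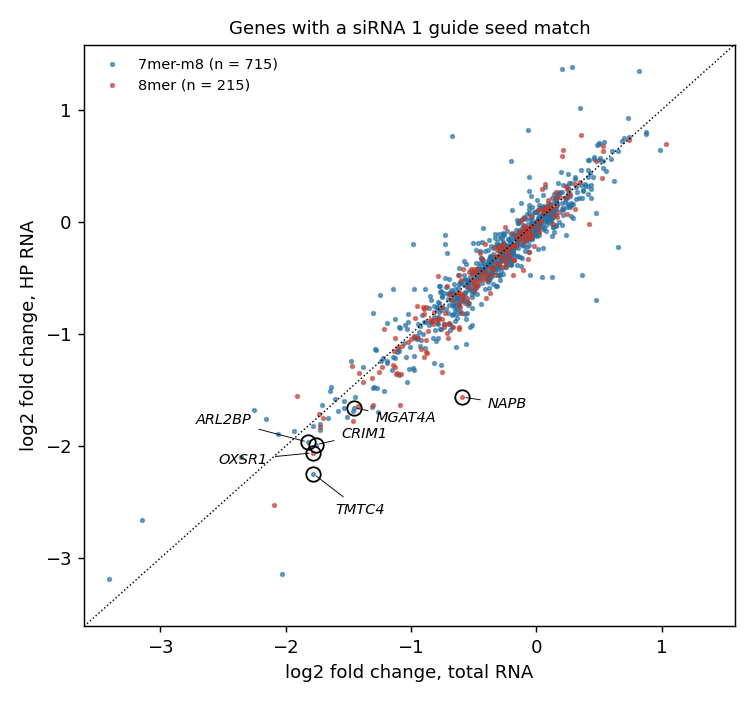
log2 fold change in total RNA (x axis) and HP RNA (y axis) of the 930 genes with a 7-nt match to the seed of siRNA 1, 7mer-m8 in blue and 8mer in red, with the 6 genes circled. The dotted line marks equal fold changes. Most genes lie along it, and NAPB, at −0.59 and −1.56, lies below it.

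The pattern over the 12 libraries was compared by the root mean square difference of log2 CPM, centred on each gene's mean. The fall after hnRNP U siRNA, on which the genes were chosen, enters this difference. Nearness of the chosen genes to each other is therefore given as a description, and nothing is read from it. The gene most like OXSR1 among 9702 was CRIM1 (0.09), and the reverse held as well. ARL2BP was closest to RAPGEF1 (0.12), the gene of an exchange factor of RAP1, and to the transcription factor gene PLAGL1 (0.15). TMTC4 was closest to ARL2BP (0.16) and RAPGEF1 (0.18). The second neighbours of OXSR1 and CRIM1 were NT5E (0.12), the gene of an ecto-nucleotidase, and AXL (0.14), a receptor tyrosine kinase gene. These 4 genes that are no members of the set, RAPGEF1, PLAGL1, NT5E and AXL, had no match of any class in the canonical 3′ UTR.

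MGAT4A was closest to PLCXD2 (0.17, a 7mer-A1) and ZNF652 (0.19, a 7mer-m8). NAPB was closest to PTAR1 (0.12), a prenyltransferase gene with 3 matches that include an 8mer, and to FAM135A (0.16), which had none. PTAR1 had log2 fold changes of −0.75 in total RNA and −1.34 in HP RNA, and FAM135A of −0.52 and −1.14. Both had the lower value in HP RNA, as NAPB did. Of the 20 nearest genes, 7 (NAPB) to 10 (CRIM1) held a 7-nt match, beside 7.32% of all tested protein-coding genes with a 3′ UTR. Other members, which hold a match by the choice, were among the nearest of some genes. The share with a match also grew with the fall, which sets the likeness, so nothing is read from this count. In HP/total 3 of the 930 genes with a match were called, NAPB and PTAR1 (−0.56, SE 0.08) lower and the ribosomal protein gene RPLP1 (0.32, SE 0.06) higher, of which RPLP1 was picked out after its values were seen.

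The partners of the 6 genes in their pathways, and their paralogues, were taken from lists of 72 genes, of which 64 were tested. In total RNA 31 were lower and 11 higher, beside 29.3% and 28.0% of all genes tested, with a median log2 fold change of −0.12 beside 0.00 over all. In HP RNA 31 were lower and 9 higher, beside 26.3% and 25.5%, with a median of −0.15. In HP/total 0 were called by edgeR's quasi-likelihood test, 4 had an unadjusted p under 0.05 (7.04% of all genes), and 1, POMT2, was called by DESeq2 and with either block. Among those with a 7-nt match to the seed of siRNA 1, ELMOD2, BMPR2, TMTC3 and MAN2A2 were lower in total RNA, and CUL3, SMAD1 and STX7 were not called.

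Of 11 ARL2BP partners, 6 were lower and 1 higher. ELMOD2, which encodes a GTPase-activating protein of ARL2 and has a 7mer-m8 match, went from 52.07 to 16.02 CPM in total RNA, a fold change on the log2 scale of −1.71 (SE 0.05; edgeR's adjusted p = 3.7e-13), close to that of ARL2BP. ARL2 itself was at −0.24 (SE 0.06), the myristoyl-cargo carrier gene UNC119B at −0.60 (SE 0.04) and TBCD, a tubulin folding cofactor that binds ARL2, at −0.51 (SE 0.04). CFAP36, which shares the ARL2-binding fold, was at 32.5 CPM with either siRNA and was not called (0.00, SE 0.05).

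Of 11 OXSR1 partners tested, 4 were lower in total RNA. The paralogue STK39 went from 269 to 220 CPM, or −0.30 on the log2 scale (SE 0.04; edgeR's adjusted p = 4.64e-06). CAB39, a scaffold that activates both kinases, was at −0.46 (SE 0.04) and the potassium-chloride cotransporter gene SLC12A7 at −0.39 (SE 0.05). WNK4, an upstream kinase gene, was at −1.47 (SE 0.23) but only at 1.44 CPM before silencing. The sodium-potassium-chloride cotransporter gene SLC12A2, at −0.08 (SE 0.05), and WNK1, at 0.03 (SE 0.05), were not called. CUL3, named here after its values were seen, was at −0.04 (SE 0.04) and was not called with an 8mer. A 7-nt match thus did not go with a lower level in each gene that held one.

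Of 10 TMTC4 partners, 5 were lower and 3 higher. The paralogues differed, with TMTC1 at −1.18 (SE 0.22) from 3.01 CPM, TMTC3, which has a 7mer-m8 match, at −0.32 (SE 0.04), and TMTC2 at 0.16 (SE 0.07), which did not pass (adjusted p = 0.0529 from edgeR). The O-mannosyltransferase genes POMT1 and POMT2 were at −0.54 (SE 0.07) and −0.69 (SE 0.06), and DPM3, a subunit gene of the enzyme that makes their mannose donor, rose by 0.73 (SE 0.07). The fold change of TMTC4 was further from 0 than those of its 3 paralogues, a difference that was not tested.

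Of 11 CRIM1 partners tested, 6 were lower and 2 higher. The type II BMP receptor gene BMPR2, with 2 matches that include an 8mer, went from 49.9 to 26.8 CPM, or −0.90 on the log2 scale (SE 0.06; edgeR's adjusted p = 1.75e-09). SMAD6, an inhibitor gene of the pathway, was at −0.72 (SE 0.09) and the BMP target gene ID3 at −0.65 (SE 0.09), and neither held a match of any class. The type I receptor gene ACVR1 rose by 0.60 (SE 0.06). SMAD1, with a 7mer-m8 match, was at −0.08 (SE 0.07) and was not called. ACVR1 and SMAD1 were picked out after their values were seen.

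Of 8 MGAT4A partners tested, 5 were lower and 1 higher. The paralogue MGAT4B, without a match, was far more abundant, at 160 CPM in control total RNA against 18.2 CPM for MGAT4A, and had a log2 fold change of −0.39 (SE 0.04). The Golgi mannosidase gene MAN2A1 was at −0.69 (SE 0.06), and the branching enzyme genes MGAT5B and MGAT5 were at −0.53 (SE 0.10) and −0.24 (SE 0.05). MAN2A2, with a 7mer-m8 match, was at −0.17 (SE 0.05). MGAT3, MGAT4C and MGAT4D were too low to be tested.

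Of 13 NAPB partners tested, 5 were lower and 3 higher in total RNA, and the values of its paralogues lay above 0, unlike that of NAPB. NAPA, which encodes α-SNAP, went from 31.2 to 33.9 CPM (0.12, SE 0.05, adjusted p = 0.0406 from edgeR, but 0.0871 from DESeq2) and NAPG, which encodes γ-SNAP, from 35.8 to 44.7 CPM (0.32, SE 0.05, adjusted p = 2.98e-05 from edgeR). In HP RNA NAPG rose by 0.34 (SE 0.06), whereas NAPA, at 0.04 (SE 0.06), was not called. The SNARE gene SNAP23 rose by 0.39 (SE 0.06), and VAMP3 and SNAP29 were at −0.34 (SE 0.04) and −0.18 (SE 0.04). The log2 fold changes of HP/total were −0.05 (SE 0.07) for NAPA and 0.06 (SE 0.08) for NAPG, beside −0.94 for NAPB.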

How the data were processed

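RNA-seq libraries of HCT116 cells were prepared from polyadenylated RNA with a directional kit. The authors trimmed the reads, aligned them with STAR (version not given in the sources used here) to hg38 and deposited raw counts per gene of GENCODE 43. CASAVA 1.8 and STAR are named in the submitters' processing notes. The strand setting of the counting is not given in the sources used here.

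The deposited counts were analysed with edgeR 4.0.16 (limma 3.58.1) in R 4.3.3, with TMM scaling, filterByExpr at a minimum count of 10, the quasi-likelihood F-test and Benjamini-Hochberg adjustment over 15920 genes with 0.05 as the limit. Total RNA, HP RNA and HP against total RNA with control siRNA were fitted on 6 libraries each, and HP/total as the interaction over 12 libraries. Log2 CPM used a prior count of 2. On simulated data with 200 of 15920 genes changed by a log2 value of 1, 99.0% (total), 99.5% (HP), 96.0% (HP/total) and 98.0% (HP against total, control) were recovered. In the same order, 4.3%, 6.1%, 5% and 3.9% of the calls were false. The changed genes had a mean count of at least 50, and the libraries were drawn independently, without shared experiments or cultures. The labels number the replicates 1 to 3, and the study gives 3 independent experiments per group. The main fits held no replicate block, so their p-values measure the spread between libraries within the groups. Same-numbered libraries deviated together in HP RNA (correlations 0.197 to 0.335) and between total and HP RNA of the same siRNA (0.155 to 0.400), but less in total RNA (0.041, 0.142 and 0.238). The sample titles also give same-numbered libraries of all groups a shared prefix, so the pairing rests on the labels. Differently numbered libraries were not compared, so these correlations cannot show the pairing by themselves. Blocked fits, DESeq2 1.42.0, other filters and scaling, and left-out libraries were alternatives.

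Gene names, 3′ UTRs and sites came from GENCODE 44 on GRCh38, matched by the stem of the Ensembl identifier for 62639 of 62703 identifiers, with 1 canonical transcript per gene and 47 copies on the Y chromosome left out. The site of siRNA 1 was located in HNRNPU through the study's mutagenesis primer, that of siRNA 2 by its position relative to it. The motif was searched on the sense strand of the transcript as GTATGCT (siRNA 1) and TTGTAGT (siRNA 2). Named genes were the 6 genes, HNRNPU, all tested paralogues, up to 3 called partners per list with the largest fold change in total RNA, the neighbours in the ordering by fold change, and the 2 genes most alike. The members and lists were chosen with earlier results of these data known. One partner gene is not reported here.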

Additional observations from a re-analysis of the deposited data

Results flagged for a closer look

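NAPB is listed because its fold changes after hnRNP U siRNA differed between the 2 kinds of RNA in the interaction fit. The log2 fold change was −0.59 in total RNA and −1.56 in HP RNA, and the difference in HP/total was −0.94 (SE 0.13). It was negative in each of the 3 experiments (−0.86, −1.14 and −0.81). The gene was chosen with these values known, and the interaction is computed from the fold changes behind that choice, so it is a description and no independent test.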

How the results depend on the processing

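Of 651 values under the alternatives, over 47 results, 603 kept their direction and their side of the limit or moved by less than the spread, 46 moved further, 1 no longer passed and 1 changed sign. The fold changes of the 6 genes kept their sign in HP/total, HP RNA and total RNA under every alternative run, for example from −0.64 to −0.55 for NAPB in total RNA and from −1.01 to −0.90 in HP/total. For the moved values the cause was not tested.

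The counts in HP/total, 13 lower and 13 higher over all genes, 2 and 1 with a match and 0 and 0 among partners, depended most on the fit. With the replicate block they were 30 and 48, 5 and 3, and 1 lower partner, and with the culture as the replicate block 43 and 97, 6 and 6, and 1. In total RNA, where only 2 of 3 numbered pairs deviated together, the block gave 4872 lower and 4635 higher genes. Blocking changed no other call of the 6 genes than that of TMTC4 in HP/total. DESeq2's test called TMTC4 too and gave 32 lower genes, 5 lower and 2 higher with a match and 1 lower partner. Without a filter on low counts these were 38 lower and 23 higher genes, 6 lower with a match and 1 lower partner. With a minimum count of 50, 2 genes with a match were higher, and with DESeq2's size factors 0 were. Leaving out 1 library at a time gave 8 to 19 lower and 6 to 24 higher genes, and 0 to 2 higher with a match. The lowest counts came without a total RNA library of hnRNP U siRNA (experiment 1 or 3, lower) and without HP RNA of hnRNP U siRNA in experiment 2 (higher), the highest without control HP RNA of experiment 2 (24 higher) and experiment 3 (20 higher).

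The median fold change of the genes with a match in HP/total, 0.00, was −0.03 with DESeq2's size factors (−0.0345) or test (−0.0347), −0.0624 without a filter, and −0.074 to 0.0097 with 1 library left out. In HP RNA the median, −0.30, was −0.27 with all 12 libraries in 1 fit, −0.28 with a minimum count of 50, −0.25 with a match in any annotated 3′ UTR (1109 genes; −0.24 in total RNA) and −0.30 to −0.27 with 1 library left out. CRIM1 in HP/total, −0.20, was −0.26 without a filter and −0.27 to −0.15 with 1 library left out. OXSR1 in HP against total RNA with control siRNA was 0.11 with a minimum count of 50 (adjusted p = 0.0622 from edgeR). CRIM1 in the same comparison, 0.04 and not called, was −0.0231 with that minimum count (adjusted p = 0.693 from edgeR). What depth and what the spread between experiments add to the SEs was not separated.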
